A study of Homo sapiens with 8 samples.

Results

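The comparison described here is between 2 activator proteins, each directed by its own Tet guide RNA in HEK293T reporter cells. Of the 8 RNA-seq libraries of the study, 4 enter it by their titles: 2 libraries with dCasMINI-VPR and the guide sgTet, and 2 with dCas12a-VPR and the guide crTet. HEK293T is a line derived from human embryonic kidney, and here it carries TRE3G-GFP, a GFP reporter whose promoter holds tet operator sites. In all groups, plasmids for an activator and its guide were transfected, and 2 days later cells expressing mCherry and BFP were collected by sorting. The other 4 libraries pair the same activators with a non-targeting guide (sgNT for dCasMINI-VPR, crNT for dCas12a-VPR, 2 libraries each). They served to estimate the spread between replicates and to test whether a difference between the activators depended on the guide.

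Both activators are Cas proteins without cutting activity joined to VPR, a fusion of the VP64, p65 and Rta activation domains. A guide RNA brings the protein to a matching DNA site, where VPR recruits the transcription machinery. dCasMINI is an engineered small Cas12f protein and dCas12a a larger one, and each uses a guide RNA of its own form. The activator, the guide RNA and the set of file names change together between the groups and cannot be told apart. Whether the 2 replicates of a group are separate transfections is not stated in the labels, so p-values measure only the spread between these samples, which may be technical.

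The 4 Tet libraries held 19709269 to 21081942 reads assigned to genes, and the lowest of the 8 libraries held 17474404. Unmapped reads were 8.32% to 9.17% of reads with sgTet and 9.37% to 9.55% with crTet. They were 9.11% to 9.62% with sgNT and higher, 12.7% to 14.4%, with crNT. The crNT libraries enter the comparison of non-targeting guides and every test of guide dependence. The replicates of sgTet differed more than those of the other groups: the chi-square per degree of freedom of their counts over genes was 12.5, against 6.47 for crTet, 3.80 for sgNT and 3.12 for crNT. Of the 13 matched HEK293T markers, NR0B1 had no read in the 4 Tet libraries, and the list summed to 1473 to 1632 CPM with sgTet and 1453 to 1629 with crTet (CPM of the unscaled gene-read total for summed lists). The defining blood cell markers PTPRC, CD3D, CD3E, MS4A1, CD68 and HBB had no read in these 4 libraries. The summed level was lower with sgTet, without overlap of the groups, for fibroblast markers (269 to 302 against 340 to 365 CPM) and endothelial markers (49.4 to 59.9 against 69.8 to 78.9). The same held for kidney tubule markers (40.6 to 43.1 against 51.4 to 51.8), haematopoietic markers (5.23 to 5.74 against 7.07 to 7.41) and pancreatic endocrine markers (81.4 to 87.0 against 89.2 to 90.6). It was higher with sgTet, also without overlap, for skeletal muscle markers (69.0 to 71.7 against 66.5 to 67.4) and neuronal markers (214 to 228 against 188 to 211). Cardiac muscle markers were higher too (445 to 452 against 197 to 208), with NKX2-5 at 335 CPM with sgTet. Single genes weigh on such sums: in the skeletal muscle list, VGLL2 had a TMM-scaled mean of 19.7 CPM with sgTet and 2.28 with crTet. The median log2 difference, sgTet minus crTet, was -0.27 for tested skeletal muscle markers (5 of 11 positive). It was -0.25 for cardiac markers (3 of 9 positive) and 0.00 for neuronal markers (6 of 12 positive). Of all single tested genes, 44.5% did not overlap either. The part of these cell types in the results was not tested.

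The reporter was switched on with both activators and was higher with dCasMINI-VPR. EGFP, the row that counts reporter reads, stood at 919 and 1092 CPM (reads scaled to a common library size with TMM factors) in the sgTet libraries and at 803 and 707 CPM in the crTet libraries. With non-targeting guides it was at 3.22 and 4.42 CPM with sgNT and at 2.76 and 2.66 CPM with crNT. Both sgTet libraries lay above both crTet libraries. The log2 difference, sgTet minus crTet, was 0.41 ± 0.08 (SE), with an adjusted p of 0.00265 in edgeR's quasi-likelihood test. Without crTet replicate 2 it was 0.32 with an adjusted p of 0.0934. With non-targeting guides the effector difference for EGFP was 0.49 ± 0.19, from 141 reads with sgNT and 108 with crNT, and did not pass (edgeR adjusted p 0.133). The test of dependence on the guide gave an adjusted p of 0.904. RELA, whose protein p65 is a source of 1 of the VPR domains, differed by 0.15 (adjusted p 0.333), GAPDH by -0.13 (0.266) and ACTB by 0.20 (0.0623). ACTB passed under 5 alternatives, with the smallest adjusted p, 0.00189, when the trend on gene length and GC content was removed.

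**Figure D1:**
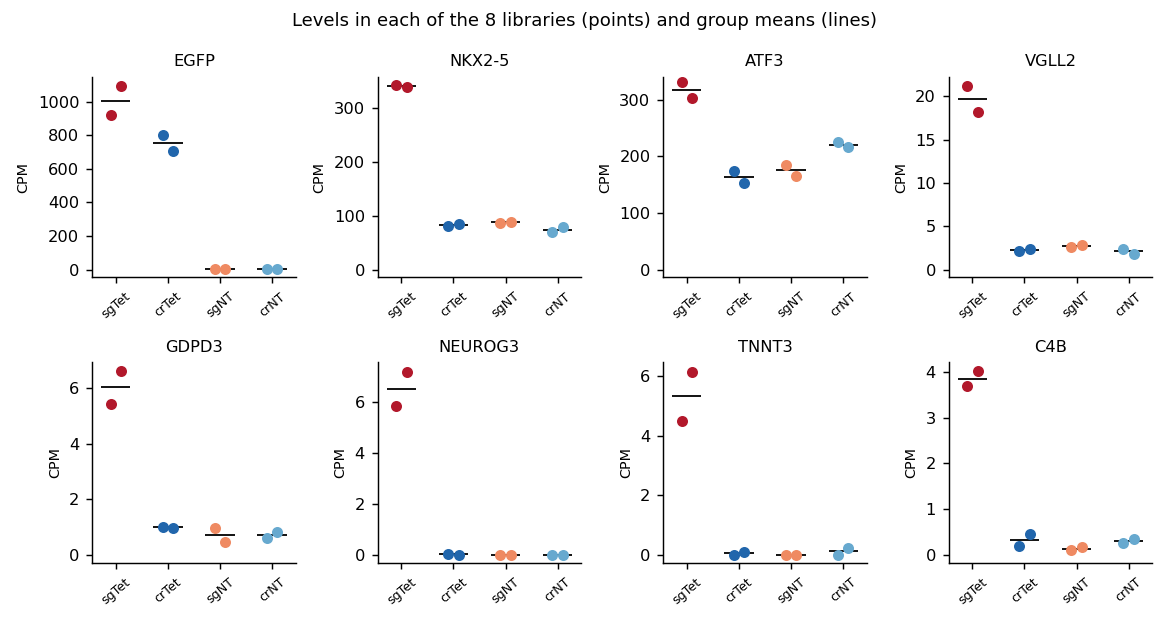
CPM of 8 genes in each library (points; lines are group means, n = 2), on linear axes. EGFP was high with both Tet guides, while NKX2-5, ATF3, VGLL2, GDPD3, NEUROG3, TNNT3 and C4B were highest in the 2 sgTet libraries.

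Across all 16606 genes tested, 711 (4.28%) passed an adjusted p of 0.05 between sgTet and crTet. Of these, 279 (1.68% of tested genes) were higher with dCasMINI-VPR and 432 (2.60%) were lower. The differences were mostly small: the median fold was 1.28 for the genes that were higher and 1.53 for those that were lower. At 2-fold or more, 36 genes were higher (0.217%) and 86 were lower (0.518%). At 4-fold or more the order of the counts turned, with 30 genes higher and 14 lower. All 711 genes had libraries that did not overlap between the groups, as did 44.5% of all tested genes. The median log2 difference over all tested genes was -0.00.

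The number and direction of the calls depended on the libraries and the scaling. Leaving out sgTet replicate 2 gave 2150 genes, while leaving out sgTet replicate 1, crTet replicate 1 or crTet replicate 2 gave 379, 370 and 331. Without TMM factors, 186 genes were higher and 464 lower. Removing a trend on gene length and GC content gave 599 higher and 483 lower genes.

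**Figure D2:**
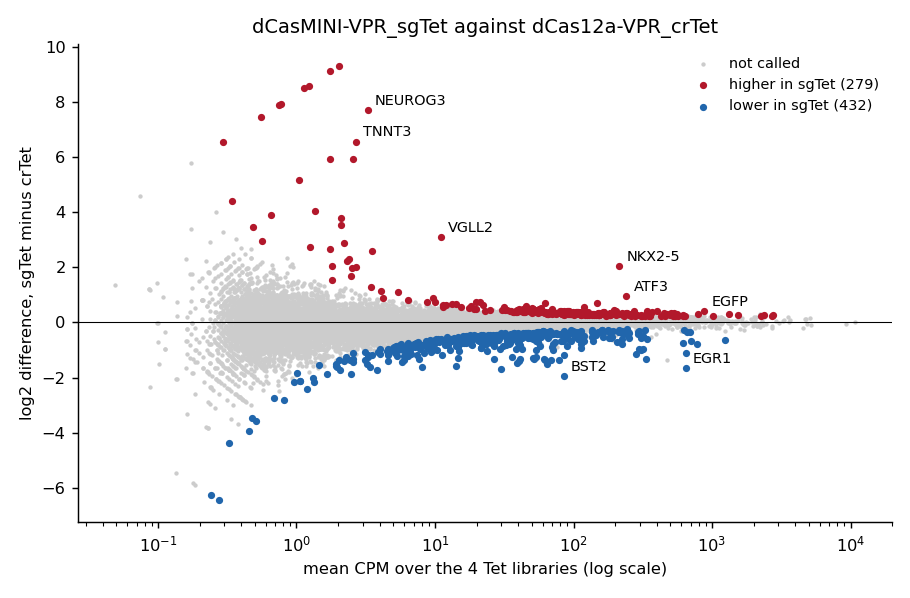
Log2 difference between sgTet and crTet (positive is higher with dCasMINI-VPR) against mean CPM over the 4 Tet libraries on a log axis, one point a gene. Red points are the 279 called higher and blue the 432 called lower; fitted differences of genes with no read in a group rest on a small prior count and are not estimates of the fold.

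The interferon response was the list with the most called members, and all its called members were lower with dCasMINI-VPR. Type I and type III interferons bind receptors that activate a complex of transcription factors, and this complex switches on antiviral genes through interferon-stimulated response elements in their promoters. Of 42 tested interferon-stimulated genes, 35 were lower and 0 were higher in sgTet (38 lower and 0 higher at an unadjusted p under 0.05 in edgeR, 34 and 0 in DESeq2). The list's median log2 difference was -0.94, against -0.00 over all tested genes. The called members were 1.33-fold to 3.86-fold lower, with a median of 1.97-fold. Between 32 and 37 members were called lower under every alternative run.

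Promoter sequences of the 4 members shown next are given because their letters hold GAAANNGAA, the core repeat of an interferon response element, which stands in capitals on either strand. They run from 250 bases before to 50 bases after the gene's start, 5′ to 3′ on the gene's strand, from RefSeq on GRCh38.p14.
BST2 (chr19:17405581-17405880, minus strand): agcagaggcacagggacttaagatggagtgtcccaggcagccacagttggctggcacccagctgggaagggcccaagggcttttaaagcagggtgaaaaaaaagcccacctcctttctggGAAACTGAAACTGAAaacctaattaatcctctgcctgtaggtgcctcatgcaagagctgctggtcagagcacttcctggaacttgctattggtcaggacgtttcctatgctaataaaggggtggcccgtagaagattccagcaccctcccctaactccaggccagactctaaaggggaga
IFI27 (chr14:94110486-94110785, plus strand): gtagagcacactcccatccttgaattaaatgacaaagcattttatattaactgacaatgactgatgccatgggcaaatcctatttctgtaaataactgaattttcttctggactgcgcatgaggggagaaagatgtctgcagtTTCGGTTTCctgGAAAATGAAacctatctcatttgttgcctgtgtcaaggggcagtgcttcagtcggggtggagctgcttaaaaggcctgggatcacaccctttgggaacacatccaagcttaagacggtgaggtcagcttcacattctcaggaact
IFITM3 (chr11:320811-321110, minus strand): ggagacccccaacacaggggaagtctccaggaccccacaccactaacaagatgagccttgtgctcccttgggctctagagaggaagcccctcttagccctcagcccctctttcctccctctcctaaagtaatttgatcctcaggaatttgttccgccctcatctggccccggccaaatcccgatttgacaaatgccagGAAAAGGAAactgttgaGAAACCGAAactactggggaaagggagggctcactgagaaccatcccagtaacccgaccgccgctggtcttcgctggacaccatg
ISG15 (chr1:1013247-1013546, plus strand): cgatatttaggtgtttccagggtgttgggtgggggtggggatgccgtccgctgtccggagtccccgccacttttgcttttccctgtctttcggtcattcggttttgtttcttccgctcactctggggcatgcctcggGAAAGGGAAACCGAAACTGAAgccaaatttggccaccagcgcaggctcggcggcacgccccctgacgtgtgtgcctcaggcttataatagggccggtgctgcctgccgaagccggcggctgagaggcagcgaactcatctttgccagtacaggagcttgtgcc
GAAANNGAA was found on either strand in 17 of the 25 interferon-stimulated genes that were lower and had a promoter entry (68%). It was in 6.24% of 11882 promoters of tested genes and in 8.29% of all 27305 promoters of the table. Overlapping matches count once. CMPK2, IFI35, IRF1, OAS1, PARP9, STAT2, UBE2L6 and XAF1 were lower and had no match in the window. The motif was chosen with the results known, and 3 further motifs searched in the same promoters are given with the immediate early genes.

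BST2, which had the largest fold among the called members, is the tetherin that holds budding virions at the cell surface (chr19:17402939-17405648, minus strand, GENCODE 29 on hg38). It stood at 33.5 and 36.3 CPM with sgTet and at 147 and 122 CPM with crTet. The 2 groups lay far apart, with a log2 difference of -1.95 ± 0.10 (edgeR adjusted p 5.23e-16). IFITM3, which blocks fusion of viruses in endosomes (chr11:319669-327537, minus strand), had 43.8 and 44.0 CPM with sgTet and 112 and 113 CPM with crTet, a difference of -1.36 ± 0.09. IFITM1 had 36.7 and 30.9 CPM against 92.4 and 98.0 CPM, a difference of -1.49. IFI27 (chr14:94104836-94116698, plus strand) had 12.5 and 15.7 CPM against 44.8 and 46.7 CPM, a difference of -1.70 ± 0.12. In each of these genes the lower crTet library was above the higher sgTet library.

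Several called members act on viral RNA. OAS1 and OAS3 make the messenger that activates RNase L. OAS1 had 21.1 and 20.3 CPM with sgTet and 62.9 and 52.6 CPM with crTet (-1.48), and OAS3 had 206 and 202 against 442 and 378 CPM (-1.01). DHX58, a regulator of the RIG-I-like receptors, had 4.05 and 3.92 against 13.2 and 11.3 CPM (-1.62). IFIT1, which binds RNA with unmethylated caps, had 579 and 579 against 994 and 983 CPM (-0.77). The ubiquitin-like modifier ISG15 had 189 and 237 against 408 and 429 CPM (-0.98), and UBE2L6, the enzyme that conjugates it, 37.8 and 38.8 against 105 and 91.7 CPM (-1.36).

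Among the factors that carry the signal, STAT2 differed by -0.86, IRF7 by -0.67 and IRF1 by -0.62, and all 3 passed the test. The 7 tested members that did not pass were IFI6, ISG20, HERC6, MX1, RIGI, SAMD9L and IRF9, and IRF9 alone had a positive value (0.78, adjusted p 0.547). Outside the list, LGALS3BP, a secreted glycoprotein, had 188 and 196 against 493 and 463 CPM (-1.32), APOL1 differed by -1.73, PLEKHA4 by -1.59 and TRANK1 by -1.89.

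A set of 32 genes of interferon signalling, antigen presentation and a few others was looked up after the results had been seen. It includes ATF3, KRT8 and KRT18, which are members of other lists. Of the 28 with a test, 12 were lower, KRT8 among them, and 1 was higher, ATF3. Over all tested genes 2.60% were lower and 1.68% higher. The antigen presentation genes HLA-B (148 and 164 against 257 and 254 CPM), HLA-C, B2M, TAP1 and PSMB9 were lower with dCasMINI-VPR, by -0.71, -0.74, -0.42, -0.87 and -1.14 on the log2 scale. TLR3, a sensor of double-stranded RNA, differed by -1.34 and STING1 by -0.79. The interferon genes IFNL1 (12 and 17 reads against 60 and 44) and IFNL2 (6 and 8 against 40 and 23) were lower, with adjusted p of 0.0129 and 0.0353, and IFNB1 (-0.68, 0.158) did not pass. IFNL2 and IFNL3 are near-identical copies, so their reads are uncertain. The receptor and pathway genes IFNAR1, IFNGR1, IFNGR2, IFNLR1, JAK1, TYK2, IRF3, MAVS and TBK1 did not pass.

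The same direction was seen with non-targeting guides, in libraries that the Tet comparison does not share. There 37 members were lower in sgNT than in crNT, with a median of -1.11, and 34 of the 35 members lower with Tet guides were among them. Over all genes, 1276 (7.68%) were called between sgNT and crNT. The exception was IRF1, which differed by 0.03 with non-targeting guides. The dependence of the difference on the guide was called in 224 of all tested genes (1.35%) and in 5 members of the list, each with a smaller difference under Tet guides, among them RSAD2 (-1.01 with Tet and -1.94 with non-targeting guides, adjusted p 0.0013), IFIT3 (0.0127), DDX60 (0.0231) and HERC5 (0.036). For RSAD2, which makes an antiviral nucleotide, the sgTet libraries had 37.7 and 32.9 CPM, crTet 78.6 and 63.4, sgNT 31.1 and 27.0, and crNT 117 and 106 CPM. In these bulk samples, fewer cells of a type and less RNA per cell cannot be told apart.

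**Figure D3:**
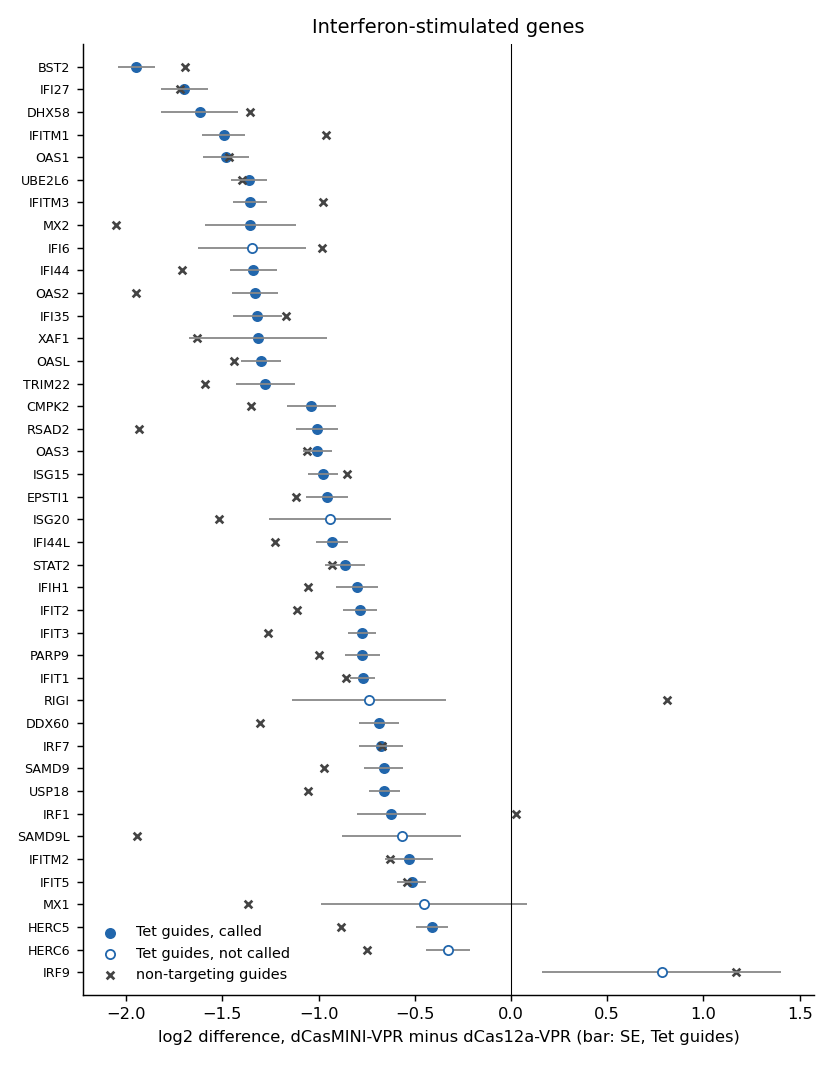
Log2 difference between the activators for tested interferon-stimulated genes (1 of the 42 is not drawn), with Tet guides (circles; bars are SE; filled where called) and with non-targeting guides (crosses). All filled circles lie left of 0, and most crosses lie left of 0 as well.

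Under Tet guides 16 of 32 tested immediate early genes were called lower with dCasMINI-VPR, and for several of them the difference depended on the guide. These genes encode transcription factors and phosphatases that growth factors and stress switch on within minutes, before new protein is made. ATF3 was called higher, and the median of the list was -0.53. At an unadjusted p under 0.05 in edgeR, 1 was higher and 19 were lower, and DESeq2 called 1 higher and 16 lower. With non-targeting guides 4 were higher and 3 lower, with a median of -0.05. The test of guide dependence called 9 members, 8 with a lower and 1 with a higher value under Tet guides.

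The AP-1 subunit JUN had 946 and 988 CPM with sgTet and 1586 and 1452 CPM with crTet, a log2 difference of -0.65 ± 0.08 (edgeR adjusted p 1.29e-06). With non-targeting guides the order was the opposite, with 1027 and 1164 CPM for sgNT and 616 and 736 CPM for crNT, a difference of 0.70. The 2 differences were 1.35 apart on the log2 scale (estimate -1.35 ± 0.11, adjusted p 4.12e-09). JUNB had 32.5 and 37.8 CPM with sgTet, 90.5 and 89.95 with crTet, 41.6 and 50.8 with sgNT and 51.1 and 53.4 with crNT. Its crTet libraries stood above all 6 others, and the guide dependence was -1.18 (adjusted p 8.41e-06). FOS had 438 and 382 CPM with sgTet, 930 and 840 with crTet, 311 and 390 with sgNT and 211 and 272 with crNT (guide dependence -1.64, adjusted p 0.0231). FOSB differed by -1.15 with Tet and by -0.03 with non-targeting guides (guide dependence -1.12, adjusted p 0.0062), and JUND by -0.57 and -0.03 (-0.54, 0.0161).

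Other members followed the same order with Tet guides. IER2 had 50.9 and 52.9 CPM with sgTet and 118 and 118 CPM with crTet (-1.19 ± 0.09), and it was also lower with sgNT than with crNT (-0.54). DUSP1, a phosphatase that switches off MAP kinases, had 270 and 261 against 359 and 389 CPM with Tet guides (-0.49) and 240 and 261 against 134 and 163 CPM with non-targeting guides (0.76). KLF4 differed by -0.62 and 0.30 under the 2 kinds of guide. EGR1 had 356 and 265 against 1090 and 866 CPM (-1.65), with an adjusted p of 0.047 that was lost when any 1 of the 4 Tet libraries was left out (0.0796 to 0.155). The list had 10 members lower, not 16, without crTet replicate 1, and also 10 when the trend on length and GC content was removed.

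ATF3, a stress-induced member of the ATF and CREB family, was the one member that was higher with dCasMINI-VPR. It had 331 and 303 CPM with sgTet, 175 and 154 with crTet, 184 and 166 with sgNT and 225 and 216 with crNT. Both sgTet libraries stood above the other 6. The difference was 0.95 ± 0.08 with Tet guides (edgeR adjusted p 1.17e-10) and -0.33 with non-targeting guides, and the test of guide dependence gave 1.28 ± 0.11 (adjusted p 3.12e-09).

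**Figure D4:**
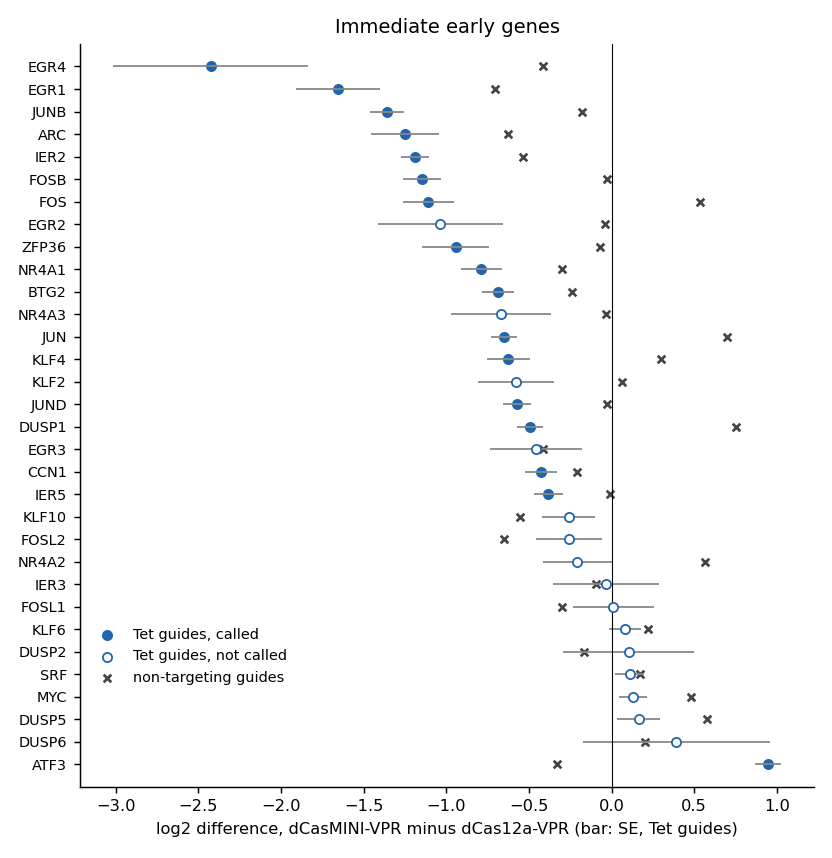
Log2 difference between the activators for the 32 tested immediate early genes, with Tet guides (circles; bars are SE; filled where called) and with non-targeting guides (crosses). The 16 called lower lie left of 0 and ATF3 lies right of it, while the crosses lie on both sides of 0.

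Of the 4 motifs searched in all, the 3 others were a cAMP response element (TGACGTCA), an AP-1 site (TGANTCA) and a TATA box (TATAAA), each on both strands. Among the 14 immediate early genes that were lower and had a promoter entry, the cAMP response element was in 2 (DUSP1 and JUND), against 3.28% of tested promoters. The AP-1 site was in 0 of 14, against 4.30%, and the TATA box in 4 of 14 (DUSP1, FOS, FOSB and JUNB), against 5.71%. GAAANNGAA was in 2 of the 14 (EGR4 and IER2). Among the 25 interferon-stimulated genes these motifs were in 0, 1 and 3. A match describes the letters only. The DUSP1 promoter is shown with its full cAMP response element in capitals.
DUSP1 (chr5:172771146-172771445, minus strand): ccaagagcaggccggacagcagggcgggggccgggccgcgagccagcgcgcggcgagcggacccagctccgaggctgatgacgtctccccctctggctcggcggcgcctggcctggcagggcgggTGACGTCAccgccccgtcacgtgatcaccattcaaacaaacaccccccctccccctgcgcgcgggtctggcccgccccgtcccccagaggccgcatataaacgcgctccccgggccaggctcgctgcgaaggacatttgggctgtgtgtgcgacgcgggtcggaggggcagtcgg

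A small group of genes, most of them near silent with dCas12a-VPR, was far higher with dCasMINI-VPR. Of the 30 genes at least 4-fold higher with sgTet, 26 were under 1 CPM and 8 had no read with crTet. Choosing genes by a large fold favours low levels with crTet, since a gene could pass the filter on low counts through the sgTet libraries alone. The median level of the 30 was 3.23 CPM with sgTet, 0.0767 with crTet, 0.202 with sgNT and 0.136 with crNT. None of them was called higher in sgNT than in crNT, where such low levels leave little power. By annotation 13 were protein coding, 14 were of other types and 3 were not annotated. For the 27 of them with a position, the nearest tested gene on each side gave 54 entries, in which MCF2L and PCID2 recur. Of these entries 2 were called, C4A and C4B, which flank each other, against 4.28% of all tested genes. The dependence on the guide was called in 8 of the 30.

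Transcription factors and cofactors of muscle and endocrine development were among them. NKX2-5, a homeobox factor of the heart (chr5:173232109-173235357, minus strand), was the one gene of the 30 at a substantial level in every library. It had 344 and 340 CPM with sgTet, 81.0 and 84.8 with crTet, 87.2 and 89.0 with sgNT and 69.6 and 79.2 with crNT. Both sgTet libraries stood above the other 6, with a log2 difference of 2.05 ± 0.08 (edgeR adjusted p 6.02e-19) and a guide dependence of 1.80 ± 0.11 (8.51e-13). VGLL2, a cofactor of TEAD factors in skeletal muscle (chr6:117265558-117273565, plus strand), had 21.2 and 18.1 CPM with sgTet, 2.14 and 2.42 with crTet, 2.61 and 2.89 with sgNT and 2.41 and 1.82 with crNT. Its difference was 3.10 ± 0.23 (adjusted p 9.75e-12).

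NEUROG3, which starts the endocrine lineage of the pancreas (chr10:69571698-69573238, minus strand), had 5.84 and 7.20 CPM with sgTet. It had 266 reads over the sgTet libraries, 1 over the crTet libraries and none with non-targeting guides, a ratio per gene read of 257 (95% exact interval 45.7 to 10176, counting error only). TNNT3, fast skeletal troponin T (chr11:1919562-1938706, plus strand), had 217 reads against 2, a ratio of 105 (28.6 to 870). TNNT3 did not pass in DESeq2 (adjusted p 0.167). The non-coding LINC02798 had 141 reads against 2, a ratio of 68.0 (18.5 to 567).

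C4A, C4B and F10 were the 3 called of 14 tested complement and coagulation genes, all higher, against 1.68% of all tested genes. No other member had a positive value. The list's median log2 difference was -0.33, and 3 members were lower at an unadjusted p under 0.05 in edgeR. GDPD3, a lysophospholipase D, had 5.45 and 6.62 CPM with sgTet and 1.02 and 0.980 CPM with crTet (2.58 ± 0.39). The complement gene C4B had 3.70 and 4.01 against 0.195 and 0.464 CPM (3.53 ± 0.56), and its near-identical copy C4A 2.997 and 4.79 against 0.536 and 0 CPM, so the split of reads between them is uncertain. Coagulation factor F10 had 3.95 and 3.96 against 1.07 and 0.516 CPM (2.30), and it overlaps an antisense gene that these unstranded counts cannot separate. The cytokine IL18 had 4.40 and 3.38 against 0.390 and 0.671 CPM (2.87). C4A did not pass in DESeq2 (adjusted p 0.533), without crTet replicate 2 (0.0624) or without sgNT replicate 1 or 2 (0.0931 and 0.0934). F10 was lost without crTet replicate 2 (adjusted p 0.0987) and IL18 without crTet replicate 1 (0.0514).

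Other markers of these tissues did not follow. Of 9 tested cardiac markers NKX2-5 alone was called, and TBX5, NPPB, MYH7, TNNT2, MYL2 and MYL7 had no read in the 4 Tet libraries. Of 11 tested skeletal muscle markers 2 were higher (VGLL2 and TNNT3) and 2 lower (TNNT1 and DES). NEUROG3 was the one called of 9 tested pancreatic endocrine markers, and INS, GCG, SST and PAX4 had no read. The 14 genes at least 4-fold lower with sgTet were all under 1 CPM there, which choosing by a large fold favours in the same way. They include EGR4, with 15 reads against 81.

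Stress and metabolic lists moved less. Among all tested genes 1.68% were higher and 2.60% lower with sgTet. Of 16 tested heat shock genes 8 were higher and 2 lower, with a median of 0.23, but the number higher ran from 1 to 9 over the alternatives and was 1 without crTet replicate 1. HSPH1, a co-chaperone of HSP70, had 438 and 395 CPM with sgTet and 313 and 324 CPM with crTet (0.39 ± 0.07), while DNAJB1 (-0.37) and HSPB1 (-0.29) were lower. HSPE1 (0.75) has many pseudogene copies, and its reads are uncertain. With non-targeting guides 5 heat shock genes were higher and 0 lower in sgNT than in crNT. Of 28 hypoxia and glycolysis genes 0 were higher and 7 lower, among them ENO2 (-0.56), PFKFB4 (-0.65) and PFKP (-0.39). With non-targeting guides 0 were higher and 13 lower, where 7.68% of all tested genes were called in either direction. With Tet guides the list had 0 and 16 at an unadjusted p under 0.05 in edgeR and 0 and 6 in DESeq2. Without crTet replicate 2 that list had 2 lower members, and without sgTet replicate 2 it had 12.

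Of 28 p53 targets 4 were lower, among them the cell cycle inhibitor CDKN1A (168 and 190 against 273 and 270 CPM, -0.60), and of 25 ATF4 targets 4 were lower (DDIT4 -0.95, CEBPB -0.65, PPP1R15A -0.57 and PCK2 -0.46), against 2.60% lower among all tested genes. With non-targeting guides 11 p53 targets and 10 ATF4 targets were lower in sgNT than in crNT, and 0 of either list were higher. Of 25 S phase genes 3 were higher with sgTet, among them MCM4 and MCM6, against 1.68% of all tested genes. The number was 11 when the trend on length and GC content was removed. MCM6 itself did not pass with that trend removed (edgeR adjusted p 0.0547), without TMM factors (0.0684) or on forward-strand (0.0624) or reverse-strand counts (0.106). HOXA5 (0.35) and HOXA9 (0.34) were the 2 called of 37 tested HOX genes with Tet guides, against 16 called higher in sgNT. Over all tested genes 4.28% were called with Tet guides and 7.68% with non-targeting guides. No member of the unfolded protein response (21 tested), G2 and M phase (24) or nuclear oxidative phosphorylation (50) lists was called in edgeR or DESeq2. At an unadjusted p under 0.05 in edgeR these lists had 3, 4 and 6 members higher and 4, 3 and 2 lower. KRT8, a keratin of HEK293T cells, had 56.2 and 56.6 against 93.5 and 89.7 CPM (-0.70 with Tet and -0.72 with non-targeting guides). Its partner KRT18 differed by 0.03 with Tet guides (edgeR adjusted p 0.907).

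Called genes differed in base composition. The median transcript GC content was 42.6% for the genes higher with sgTet, 56.7% for those lower and 48.7% for all tested. In the quintile of genes with the lowest GC content 109 were higher and 18 lower, and in the quintile with the highest 22 were higher and 170 lower. The median log2 difference ran from 0.09 in the lowest quintile to -0.12 in the highest, and with non-targeting guides it ran the other way, from -0.06 to 0.11. With the trend removed, the highest quintile had 171 higher and 121 lower genes. On chromosome 19, 4 genes were higher and 57 lower of 1089 tested, and with the trend removed 56 were higher and 42 lower. The interferon list's median GC content was 48.5%, near that of all genes, and 36 of its members were lower with the trend removed. The immediate early list's median was 55.2%. With the trend removed, guide dependence was called in 188 genes, and 112 of these were among the 224 of the main fit.

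**Figure D5:**
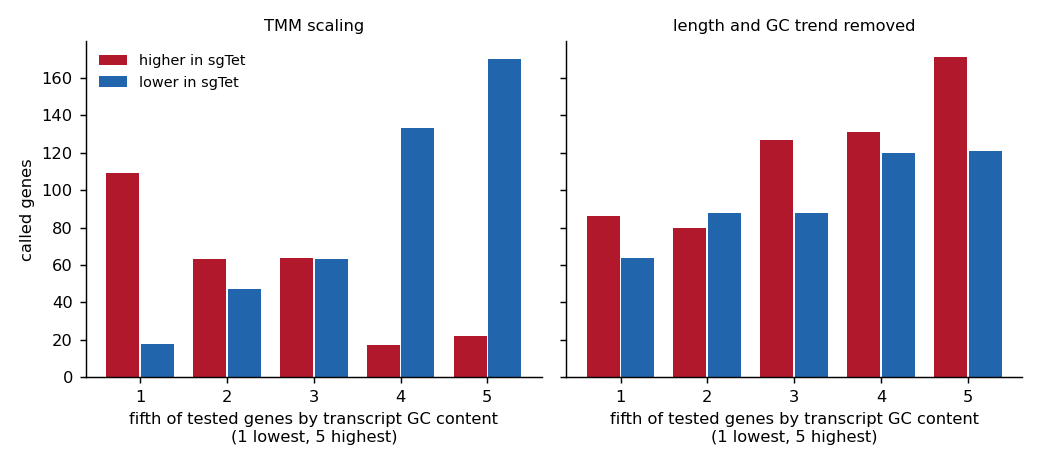
Number of genes called higher (red) and lower (blue) in sgTet in each quintile of tested genes by transcript GC content, with TMM scaling (left) and with the trend on length and GC content removed (right). Higher calls run from 109 to 22 and lower calls from 18 to 170 on the left. On the right higher calls run from 86 to 171 and lower calls from 64 to 121.

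The differences with Tet and with non-targeting guides shared some genes. Of the 711 genes called with Tet guides, 197 were also called in the same direction with non-targeting guides, which is 27.7% of the Tet calls and 15.4% of the non-targeting calls. The sign was the same in 78.3% of the Tet calls and in 55.4% of all tested genes. Pearson's r across all tested genes was 0.16 and Spearman's rho 0.17, where genes are not independent replicates. Guide dependence was called in 71 of the 711 genes. Its count over all genes, 224, was 28 without sgNT replicate 2, 30 and 71 without crNT replicate 1 or 2, 111 without crTet replicate 1 and 1835 without sgTet replicate 2. The guide dependence of NKX2-5, ATF3, JUN, JUNB, TCAF1 and ZDHHC20 passed under every alternative that gave a value. TCAF1, a regulator of an ion channel, had 179 and 189 CPM with sgTet, 119 and 107 with crTet, 116 and 113 with sgNT and 129 and 121 with crNT (guide dependence 0.83, adjusted p 4.21e-05). ZDHHC20, a palmitoyltransferase, had 156 and 128 CPM with sgTet against 96.3 and 96.8 with crTet, a Tet difference of 0.55 (adjusted p 5.88e-05) and a guide dependence of 0.72 (0.00143).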

How the data were processed

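Poly(A)-selected RNA was sequenced from 8 libraries, 2 for each of 4 groups named by their titles. Per the submitters' processing notes, reads were aligned to hg38 with STAR. Its version and the annotation release are not given in the sources used here. The authors deposited raw counts of reads per gene (60652 gene rows; the 4 summary rows were left out of sizes and tests). The unstranded column was used, since the other 2 split reads about evenly (50.3% to 50.7% forward). Symbols matched 42072 rows, and GENCODE 29 gave positions for 58361.

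Counts were fitted with edgeR 4.0.16 (robust quasi-likelihood, TMM, filter on low counts by group) in R 4.3.3, in 1 model of the 8 libraries with a mean for each of 4 groups. The common biological coefficient of variation was 8.04%. Contrasts were sgTet minus crTet, sgNT minus crNT and their difference, which measures guide dependence. Tests were two-sided, and the threshold was 0.05 on p adjusted by Benjamini-Hochberg over all tested genes. SE is the absolute difference over the root of F. The fit was tested on simulated data. Alternatives included DESeq2 1.42.0.

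Named genes were the 12 largest differences each way at a log2 CPM of 1 or more without overlap, the 6 smallest adjusted p each way at 50 CPM or more, the 8 smallest each way at 4-fold or more with the lower group under 1 CPM, up to 4 called members of each list, the 6 largest guide dependences each way, and EGFP, RELA, GAPDH and ACTB. Further list members and the looked-up genes were chosen after their values were seen. The comparison, lists and motifs were chosen with earlier results of these data known.

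No pairing by replicate number was seen: correlations of replicate deviations between groups, over all tested genes, ran from -0.03 to 0.05. Counting noise of genes with few reads enters these correlations, so they cannot exclude a pairing. Guide sequences were not used here, and the values of some genes are not reported here.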

Additional observations from a re-analysis of the deposited data

Results flagged for a closer look

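For 27 of the named genes, the difference between the activators depended on the guide by the test of the difference itself (edgeR, adjusted p under 0.05). Values are the log2 difference with Tet guides minus that with non-targeting guides. It was positive, meaning relatively higher with dCasMINI-VPR under Tet guides, for NKX2-5 (1.80), VGLL2 (2.72), ATF3 (1.28), TCAF1 (0.83), ZDHHC20 (0.72), GDPD3 (2.59), RMDN2 (1.88), BAALC-AS1 (1.60) and USH1G (1.501). It was also positive for TNNT3 (10.93), LINC02798 (7.32), C4B (4.66) and F10 (4.17), whose fitted values rest on few reads in at least 1 group and are no estimate of a fold.

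It was negative for the immediate early genes JUN (-1.35), JUNB (-1.18), IER2 (-0.65) and KLF4 (-0.92), and for CEBPB (-0.73), FTH1 (-0.60) and TGIF1 (-1.05). HOXA5 (-0.62), HOXA7 (-1.90), AMH (-1.69), IRS4-AS1 (-1.84), LBHD1 (-2.10), SNORD3A (-2.38) and GTF2IP13 (-1.68) had the larger difference with non-targeting guides. IRS4-AS1, for example, had 50.3 and 52.6 CPM with sgNT, 12.1 and 11.9 with crNT, 18.9 and 13.5 with sgTet and 13.1 and 13.9 with crTet.

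Of these 27 guide dependences, 11 passed under every alternative that gave an adjusted p: AMH, ATF3, HOXA7, IRS4-AS1, JUN, JUNB, LINC02798, NKX2-5, TCAF1, VGLL2 and ZDHHC20. RMDN2 passed in 4 of 15 alternatives, LBHD1 and BAALC-AS1 in 6 of 15 each, TGIF1 in 8 of 15, and CEBPB in 9 of 16. USH1G passed in 9 of 15, C4B in 9 of 14, GDPD3 and SNORD3A in 10 of 15 each, and GTF2IP13 and FTH1 in 11 of 15 and 11 of 16. TNNT3, F10, HOXA5, IER2 and KLF4 each lost the call in 2 or 3 alternatives. On forward-strand and reverse-strand counts the value of LBHD1 was -0.10 and -0.46, and that of FTH1 -0.11 and -0.17, and none of these passed.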

How the results depend on the processing

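The 711 genes called between sgTet and crTet became 444 on forward-strand counts, 317 in a fit of the 4 Tet libraries only and 1082 with the length and GC trend removed (607 shared with the 711). Leaving out each library in turn gave 331 to 2150 genes. With the replicate number as a block, 894 genes were called, 709 of them shared, and whether the numbers pair the samples was not settled. With the length and GC trend removed, guide dependence was called in 188 genes, 112 of them shared with the 224 of the main fit. For guide dependence, 224 genes became 450 with no filter on low counts, 106 on forward-strand counts and 400 with the replicate block, and 28 to 1835 with a library left out. For sgNT against crNT, 1276 became 333 to 2143 with a library left out. EGFP ran from 0.28 to 0.53 with a library left out, and 0.32 without crTet replicate 2 no longer passed. Of 106 named called genes, 36 passed under each of the 17 alternatives that gave an adjusted p and 40 whichever library was left out; 0 turned direction. Named genes that were not called turned: AMH to -0.13 (forward strand), -0.0057 (library size), -0.00092 (replicate block), and -0.21 to 0.21 with a library left out, HOXA7 to 0.20 (forward), 0.055 (reverse) and -0.58 to 0.18 with a library left out, IRS4-AS1 to -0.16 (forward), -0.17 (reverse) and -0.00018 to 0.49 with a library left out, LBHD1 to 0.016 (forward) and SNORD3A to -0.75 to 0.18 with a library left out. The causes were not tested. List counts under DESeq2, filters, strand columns, the 4 Tet libraries alone, the GC trend and left-out non-targeting libraries were chosen after seeing the data. With 2 libraries a group, a library left alone is assumed to vary like the other groups, and 3 reads over a group's libraries set the floor for silent genes.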
